A study of Mus musculus with 24 samples.

Results

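Lymphoid-primed multipotent progenitors (LMPP) of control mice were compared by the activity of a Rag2-GFP reporter: 3 libraries of GFP-positive cells against 3 libraries of GFP-negative cells, 6 of the 24 libraries of the series. The members were chosen by their labels alone (control genotype, CD135-positive LSK bone marrow cells, reporter gate), and all genes were read in them. LSK cells lack mature lineage markers and carry Sca1 and Kit, and CD135 is the receptor encoded by Flt3. The genotype of both gates is given as wild type (Tal1 F/F) Rag2GFP, so the Tal1 alleles were floxed but intact, and every group of the series carried the reporter. Groups used beside them were the CD135-negative LSK cells of the same genotype (Ctrl HSC) and the CD135-positive and CD135-negative LSK cells of VaviCre Tal1F/F Rag2GFP mice, whose floxed Tal1 is a target of a recombinase active across blood cells (KO LMPP and KO HSC), each in both GFP gates with 3 libraries a gate. Libraries of total RNA were made with an ultralow-input kit and sequenced for 76 cycles. Age, sex, the construct of the reporter and whether replicates are separate animals are not in the labels, so the spread behind each p-value is that between these libraries, which may be technical. The question was which genes separate control LMPP that have switched the reporter on from those that have not.

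Rag2 and Rag1 together form the recombinase that cuts antigen receptor genes, and their transcription is among the first signs that a progenitor has entered the lymphoid lineages. LMPP stand between stem cells and lymphoid progenitors: they keep some stem cell transcripts, have lost most megakaryocyte and erythroid potential, and low levels of lymphoid genes such as Dntt and Il7r appear in a fraction of them. TAL1 works with LMO2, LDB1 and E proteins on DNA and is needed for erythroid and megakaryocyte gene expression.

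The gates behaved as the labels say. Rag2 itself (ENSMUSG00000032864, chromosome 2, 101624718 to 101632529, GRCm38/mm10) was 88.0, 167 and 60.2 normalised counts in the GFP-negative libraries and 1635, 1288 and 1072 in the GFP-positive ones. Every GFP-positive library lay far above every GFP-negative one, with a log2 difference of 3.71 (SE 0.52, limma adjusted p = 0.00270; exact two-sided permutation p = 0.1, the smallest that 3 against 3 can give). Since the reporter selects on Rag2, this checks the sort and is not a result. Rag2 lies within B230118H07Rik, a gene annotated on the other strand that also spans Rag1 and was 381, 216 and 288 against 748, 435 and 632, and the counting is not stated to use strand. Flt3, the gene of the CD135 gate, was 4472, 4473 and 4813 in GFP-negative and 5806, 5957 and 6248 in GFP-positive libraries (log2 difference 0.39), Kit was 4323, 4818 and 5109.8 against 2327, 2577 and 3329 (-0.80), and Ly6a, which encodes Sca1, was 764, 878 and 416 against 344, 179 and 115 (-1.74). None of these 3 passed, although the gates did not overlap in any of them: Flt3 was higher, Kit and Ly6a lower, in GFP-positive cells that had all been sorted through the same LSK gate.

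Totals of the 6 libraries ranged from 6939316 to 9171779 normalised counts and genes above 1 normalised count from 14578 to 15845. The spacing of low values put 1 read at 0.581 to 1.42 normalised counts and the depth at an estimated 5930000 to 11900000 reads, so that 3 reads correspond to 1.74 to 4.26 normalised counts. Mitochondrial ribosomal RNA took 20.6 to 26.5% of the GFP-negative and 17.4 to 27.7% of the GFP-positive libraries. Replicate 3 of both gates came from a male source and replicates 1 and 2 from a female one, as Xist was 70260.1, 63424 and 62.2 in GFP-negative and 50771, 86859 and 3.79 in GFP-positive libraries, so sex was balanced between gates. Among markers of mature cells, Cd3e and Igkc were at or near 0 in all 6 libraries, and Cd79a in all but GFP-negative replicate 3 (11.3). Of the macrophage genes, Adgre1 was at most 7.63, but Itgam was 1672, 779.8 and 579 against 1236, 418 and 355. Csf1r was 221, 279 and 104 against 675, 286 and 373. Red cell Slc4a1 was 13.3, 7.91 and 62.8 against 0.178, 0 and 1.46, and Hbb-bs 25.1, 32.8 and 76.6 against 15.9, 4.34 and 62.1. The 10 tested genes of the lineages that the sort excludes summed to 429 to 565 ppm in GFP-negative and 433 to 567 ppm in GFP-positive libraries, and of them only Cd4 and Ighd had gates that did not overlap, both higher in GFP-positive cells. Granulocyte S100a8 was measurable, at 56.5, 153 and 427 in GFP-negative against 35.9, 64.5 and 155 in GFP-positive libraries. So was S100a9, at 107.6, 222 and 675.6 against 114, 54.8 and 389. The plasmacytoid dendritic cell gene Siglech was low, 2.70, 0 and 1.18 against 14.99, 30.2 and 5.46. Bst2 of the same cells had overlapping gates, at 172, 145 and 120.1 against 164, 109 and 104. The part of all these markers in the results was not tested. GFP-negative replicate 3 had the highest Cd79a, Slc4a1 and S100a8 of the 6. Another 2 libraries, Ctrl HSC GFP-positive replicate 2 and KO LMPP GFP-positive replicate 3, detected only 11982 and 11684 genes above 1 normalised count. They are not members of either gate, but they enter the pooled estimate of the spread.

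Of 16215 genes tested, 9 passed between the gates at an adjusted p under 0.05 (0.0555%): 5 rose in GFP-positive LMPP (0.0308%) and 4 fell (0.0247%). Beside the gate gene Rag2, the rising genes were Il7r, Cmah, Gm19331 and Synpo2l, and the falling ones were Hlf, Cd63, Ttc39b and Speg. In each of the 9, the 3 libraries of one gate all lay above the 3 of the other, as did those of 2401 genes in all (14.8%). At an unadjusted p under 0.05, 296 genes were higher in GFP-positive cells (1.83%) and 508 lower (3.13%), and the median log2 difference over all genes was -0.04.

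Il7r (chromosome 15, 9505788 to 9530176) encodes the alpha chain of the interleukin 7 receptor, through which early lymphoid cells survive and divide. It stood at 2.76, 20.1 and 9.68 normalised counts in the GFP-negative libraries and at 243, 497 and 325 in the GFP-positive ones. The GFP-negative values were low, and all GFP-positive libraries lay more than 10-fold above the highest of them, and the log2 difference was 4.71 (SE 0.85, limma adjusted p = 0.0231). In bulk RNA, fewer cells that carry a transcript and less transcript per cell cannot be told apart, here or below. Cmah (chromosome 13, 24327404 to 24477377), the hydroxylase that turns N-acetylneuraminic into N-glycolylneuraminic acid on sialylated surface glycans, was 479, 639.9 and 551 against 1947, 2844 and 2039. The GFP-negative libraries lay close together and the GFP-positive ones several-fold above them, a log2 difference of 2.01 (SE 0.32, adjusted p = 0.00911). An annotated antisense gene, Gm11342, overlaps it and was 1.45, 0.959 and 19.7 against 15.7, 151 and 11.6, with overlapping gates.

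Gm19331 and Synpo2l fell outside the rule for named genes and are named because their values were seen. Gm19331 (chromosome 12, 115386846 to 115397688) is a long noncoding RNA among the variable segments of the immunoglobulin heavy chain locus, where its first 283 bases overlap Ighv1-62-1 on the other strand. It went from 0.109, 3.87 and 1.15 to 33.5, 94.0 and 61.6 (3.48, SE 0.56, adjusted p = 0.00911). It was near 0 in GFP-negative and above that in every GFP-positive library. Synpo2l (chromosome 14, 20658946 to 20668354), an actin-binding protein known from muscle, was 2.73, 0 and 0 in GFP-negative and 36.8, 29.8 and 31.8 in GFP-positive libraries (2.92, SE 0.54, adjusted p = 0.0302). In replicate 1 of both gates, genes without reads carry a small positive value in place of 0. For genes this near to 0 the fitted difference depends on the pseudocount and is no bound on the fold.

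Hlf (chromosome 11, 90336536 to 90390895), a PAR bZIP transcription factor that marks stem cells and holds them in an immature state, stood at 7215, 5811 and 5889.8 in GFP-negative and 1467, 935 and 1182 in GFP-positive libraries. Every GFP-positive library lay several-fold below every GFP-negative one and still held a clearly measurable level. The log2 difference was -2.41 (SE 0.40, limma adjusted p = 0.00911). Cd63 (chromosome 10, 128900989 to 128912822), a tetraspanin of late endosomes, was 288, 222 and 271 against 81.6, 21.4 and 90.9 (-2.15, SE 0.41, adjusted p = 0.0311). GFP-positive replicate 2 was the lowest, and the other 2 still lay below all GFP-negative libraries. Ttc39b (chromosome 4, 83220300 to 83324255), known for a part in cholesterol metabolism, was 377, 318 and 207 against 54.5, 6.56 and 51.2 (-3.18, SE 0.60, adjusted p = 0.0311). Speg (chromosome 1, 75375297 to 75432320), a kinase of striated muscle, was 19.4, 40.7 and 47.9 against 1.62, 0 and 0, at most about 1 read in a GFP-positive library (-3.05, SE 0.52, adjusted p = 0.0133). An antisense gene, Gm15178, overlaps it.

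**Figure D1:**
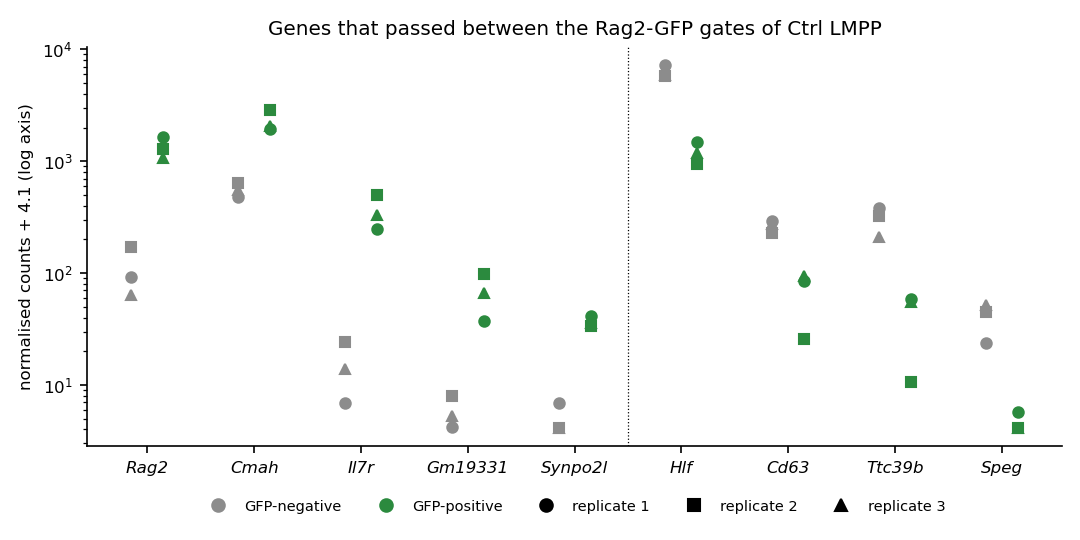
Normalised counts plus 4.1, on a log axis, of the 9 genes that passed, in the 3 GFP-negative (grey) and 3 GFP-positive (green) Ctrl LMPP libraries, with a marker shape for each replicate. Genes left of the dotted line rose and those right of it fell, and in each the gates do not overlap: Hlf went from 5811 or more to 1467 or less, and Il7r from 20.1 or less to 243 or more.

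The calls were not equally firm. Over 23 alternative settings of the fit, Rag2 passed in 21, Cmah and Hlf in 19 (adjusted p up to 0.129), Il7r in 16 (up to 0.187), Ttc39b in 15 and Cd63 in 14, each in the same direction throughout, while Gm19331, Synpo2l and Speg passed in 15, 10 and 11 of the 22 in which they were tested. The number of calls depended on single libraries. It was 0 without GFP-negative replicate 3 (limma, 677 genes at an unadjusted p under 0.05), 1 without GFP-positive replicate 2 (Rag2), 3 and 5 without GFP-negative replicates 1 and 2, and 11 and 8 without GFP-positive replicates 1 and 3. It also depended on libraries outside the comparison: with the 2 libraries of low detection left out, 26 genes rose (0.161% of 16134) and 51 fell (0.316%), the 9 among them, and all 77 had gates that did not overlap. Dividing libraries by their totals moved the median of all genes from -0.04 to -0.16 and gave 6 that rose and 9 that fell.

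Just outside the threshold stood several genes of lymphoid cells. Dntt (chromosome 19, 41029275 to 41059525), the polymerase that adds untemplated bases at antigen receptor joins, was 1978, 3112 and 2505 normalised counts in GFP-negative and 10625, 14739 and 9885 in GFP-positive libraries. It was present already in GFP-negative cells and higher in every GFP-positive library, with a log2 difference of 2.21 (SE 0.44, adjusted p = 0.0535). Dntt passed in 11 of 23 alternatives, with adjusted p between 3.33e-07 and 0.367; without the 2 libraries of low detection it was 0.00318. Rag1 (chromosome 2, 101638282 to 101649501) was 13.3, 20.1 and 8.35 against 225, 96.6 and 231, near 0 in one gate and clearly present in the other (3.34, SE 0.70, adjusted p = 0.0679). It passed in 7 of 23 alternatives, with adjusted p between 0.00107 and 0.322 (0.0116 without the libraries of low detection). All 11220 bases of Rag1 lie within B230118H07Rik on the same strand, and how reads of shared bases were counted is not stated. The constant region of the immunoglobulin mu heavy chain, Ighm (chromosome 12, 113418558 to 113422730), was 2099.8, 3364 and 2425 against 10143, 7891 and 6427 (1.63, SE 0.34, adjusted p = 0.0659). The 2 gates did not overlap, and Ighm passed in 6 of 23 alternatives, with adjusted p between 1.21e-04 and 0.410.

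The others with the smallest p among genes higher in GFP-positive cells were Ctnnd2, a delta catenin (10.6, 6.16 and 0.503 against 149, 256 and 202, 4.51, adjusted p = 0.0510), and Ctr9, a subunit of the PAF1 transcription elongation complex (363, 622 and 562 against 1635, 2496 and 1551, 1.87, adjusted p = 0.0606). Ctnnd2 was low in GFP-negative cells, while Ctr9 was expressed in both gates. Among genes lower in GFP-positive cells they were Npdc1 (32.6, 80.0 and 53.0 against 0.162, 0 and 10.0, -3.16, adjusted p = 0.0594), the protocadherin Pcdh7 (63.0, 29.4 and 38.6 against 0.176, 0 and 0, adjusted p = 0.0726), Mdga1 (363, 344 and 247 against 53.0, 9.54 and 69.9, -3.04, adjusted p = 0.0747), and the transcription regulators Ikzf2 and Lmo2, described with their lists. Pcdh7 had no reads in any GFP-positive library, and it was at least 14.8-fold lower there, counting 3 reads in each such library. Gates that do not overlap and a missed threshold were conditions for naming these genes, and Dntt, Rag1 and Ighm with them. Neither is therefore a result about them.

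**Figure D2:**
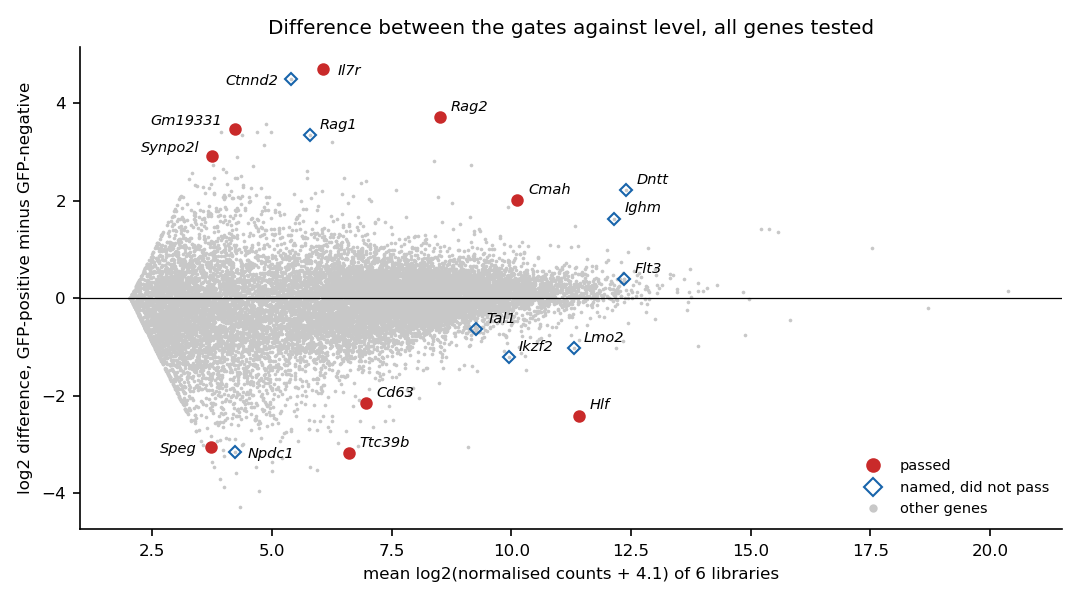
Log2 difference between the gates (GFP-positive minus GFP-negative) of all 16215 genes tested against their mean log2 level in the 6 Ctrl LMPP libraries. Filled red points passed and open blue diamonds are named genes that did not: Dntt, Ighm and Flt3 sit at the right, at high counts, and the wedge at the left is set by the pseudocount of 4.1, which bounds differences of genes near 0.

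The promoters of the 4 annotated genes that passed and are treated most fully here are shown to give the letters around their start sites, since E proteins, and TAL1 paired with them, bind E-boxes. Each stretch runs from 250 bases before the start site to 50 bases after it, 5′ to 3′ on the gene's strand, from RefSeq (GRCm38.p6), and capitals mark each CANNTG, the E-box letters on either strand. Cmah has annotated starts at a pair of places.
Rag2 (chr2:101624462-101624761, plus strand): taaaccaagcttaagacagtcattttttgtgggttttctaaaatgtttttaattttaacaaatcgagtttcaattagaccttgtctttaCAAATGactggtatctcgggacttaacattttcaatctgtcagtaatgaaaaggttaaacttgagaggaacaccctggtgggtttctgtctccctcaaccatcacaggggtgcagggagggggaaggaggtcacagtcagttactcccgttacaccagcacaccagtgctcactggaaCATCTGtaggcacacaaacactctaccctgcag
Il7r (chr15:9529827-9530126, minus strand): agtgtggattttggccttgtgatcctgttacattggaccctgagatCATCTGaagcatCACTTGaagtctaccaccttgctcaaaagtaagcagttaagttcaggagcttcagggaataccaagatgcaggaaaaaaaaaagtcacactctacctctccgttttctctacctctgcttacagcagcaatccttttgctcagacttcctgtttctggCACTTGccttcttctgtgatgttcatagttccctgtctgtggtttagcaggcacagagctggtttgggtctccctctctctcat
Cmah, upstream start (chr13:24327154-24327453, plus strand): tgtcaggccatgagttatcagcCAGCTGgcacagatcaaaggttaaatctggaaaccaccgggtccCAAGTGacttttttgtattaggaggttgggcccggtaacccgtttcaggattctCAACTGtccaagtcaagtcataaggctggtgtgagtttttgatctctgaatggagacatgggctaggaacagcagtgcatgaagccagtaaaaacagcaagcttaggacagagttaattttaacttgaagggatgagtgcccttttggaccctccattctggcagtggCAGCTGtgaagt
Cmah, downstream start (chr13:24414872-24415171, plus strand): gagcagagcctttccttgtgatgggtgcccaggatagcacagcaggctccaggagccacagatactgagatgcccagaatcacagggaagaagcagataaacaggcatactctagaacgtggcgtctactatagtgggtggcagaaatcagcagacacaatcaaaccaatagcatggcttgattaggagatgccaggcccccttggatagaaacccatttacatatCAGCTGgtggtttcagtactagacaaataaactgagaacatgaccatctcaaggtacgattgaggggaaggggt
Hlf (chr11:90390868-90391167, minus strand): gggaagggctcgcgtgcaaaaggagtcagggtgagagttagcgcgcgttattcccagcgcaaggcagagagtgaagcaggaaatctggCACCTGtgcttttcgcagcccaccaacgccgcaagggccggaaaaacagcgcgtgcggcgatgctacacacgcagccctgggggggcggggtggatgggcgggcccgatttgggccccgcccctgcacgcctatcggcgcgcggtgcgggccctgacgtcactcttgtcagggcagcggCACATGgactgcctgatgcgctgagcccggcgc
CANNTG occurs 2 times in the Rag2 window, 3 times in that of Il7r, 4 times and 1 time in those of Cmah and 2 times in that of Hlf. It occurs in 72.3% of 32851 promoters of the same length, so these letters set none of the genes apart. Among E-boxes, CAGCTG is in both Cmah windows (2 copies and 1) and in 16.3% of all promoters. CAGGTG, with its complement CACCTG, is in the Hlf window alone of the 5 and in 20.2% of all promoters. A match describes letters in this window and is no evidence of binding.

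Genes were then read by lists of lineages and pathways, whose counts stand beside the background of 6.58% of all genes with every GFP-positive library above every GFP-negative one and 8.23% with every one below. Of 25 lymphoid priming genes tested, 16 had all GFP-positive libraries above and 2 had all below, with a median log2 difference of 0.59 (0.45 to 0.70 over 23 alternatives). 1 of them, Il7r, rose, and none fell. Their summed level, 4368 to 5455 ppm of the library total in GFP-negative cells, was 7067 to 9364 ppm in GFP-positive cells, and the ranges did not overlap. Beside Il7r, Dntt, Ighm and Rag1, the larger differences were in Cnn3, an actin-binding calponin (15.9, 66.5 and 90.4 against 196, 277 and 319, 2.36), and Ccr9, the chemokine receptor that takes progenitors to the thymus (39.5, 21.8 and 100.4 against 178, 103 and 352, 1.96). Satb1, an organiser of chromatin in lymphoid cells, was 2496, 3412 and 3728 against 4947, 6259 and 5271 (0.79). The lymphoid progenitor marker Ly6d was at 0 reads in all GFP-negative libraries and at 4.38, 27.5 and 7.01 in GFP-positive ones, at least 5.1-fold higher. The 2 exceptions went the other way: Foxo1, a regulator of Il7r and Rag transcription in B cell precursors, was 288, 269 and 221 against 110.1, 199.8 and 153 (-0.77), and Il2rg, which encodes the signalling chain that pairs with the Il7r product, was 549, 757 and 777 against 439.7, 308 and 444 (-0.80; named after its values were seen). With the 2 libraries of low detection left out, 4 of the 25 rose (Il7r, Dntt, Ighm and Rag1) and none fell, beside 0.477% of all genes called.

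**Figure D3:**
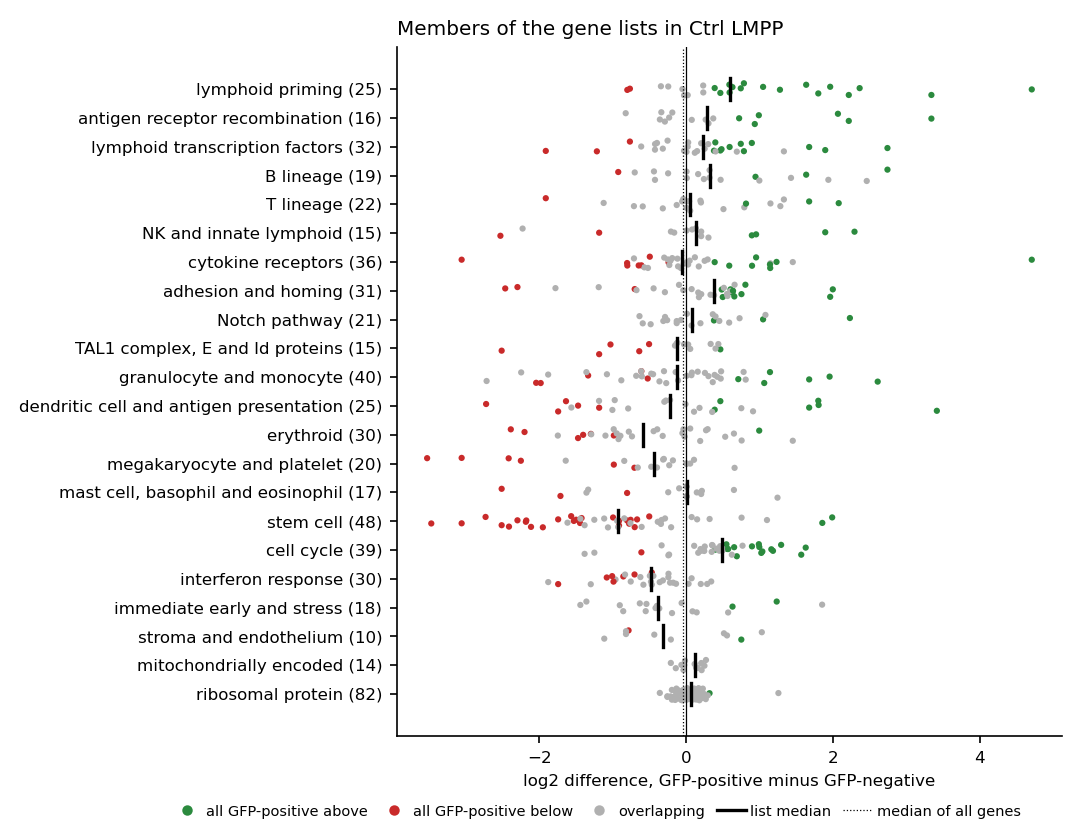
Log2 difference between the gates of every tested member of 22 gene lists, with the number of members in brackets. Green points have all GFP-positive libraries above all GFP-negative ones, red points all below, and black bars are list medians, which run from -0.93 (stem cell) to 0.59 (lymphoid priming) beside -0.04 for all genes (dotted).

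The genes of antigen receptor recombination did not move as 1 block. Of 16 tested, 6 had all GFP-positive libraries above and none all below, none passed, and the median was 0.29 (0.15 to 0.30). The 2 with a role specific to lymphoid cells, Rag1 and Dntt, had the largest differences. The end-joining ligase Lig4 followed at 1.46, 9.67 and 8.37 against 31.3, 40.2 and 40.6 (2.07; named after its values were seen). Other repair factors were closer to 0: Xrcc6 (Ku70, which binds DNA ends) was 520.4, 569.8 and 410.1 against 841, 1082 and 945 (0.93), and Xrcc4, the partner of DNA ligase 4, was 77.3, 52.6 and 49.8 against 65.7, 4.33 and 72.3, with overlapping gates. Hmgb2, a chromatin protein that helps the recombinase bind and that also follows cell division, was 1760.3, 1741 and 1726 against 4099, 2700.2 and 2148 (0.72). Top2a, a topoisomerase of dividing cells given below with the cell cycle genes, is also on this list (0.99). In the GFP-positive gate Dntt and Top2a averaged 1499 and 748 ppm, beside a list sum of 2627 to 4177 ppm. The sum without these genes was not tested.

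Of 32 lymphoid transcription factors, 11 had all GFP-positive libraries above and 3 all below, none passed, and the median was 0.23 (0.09 to 0.38). Ikzf2, the Ikaros family member Helios, was 1637, 1404 and 1451 against 577, 622 and 733, less than every GFP-negative library in each case (-1.22, SE 0.26, adjusted p = 0.0755), and it fell once the libraries of low detection were left out (adjusted p = 0.00408). It passed in 4 of 23 alternatives, with adjusted p between 0.00133 and 0.410. Its relative Ikzf1 (Ikaros), which opens lymphoid genes in progenitors, went the other way at 3756, 4323 and 3513 against 7575, 6791 and 5215 (0.74). Irf8, needed for B cells and dendritic cells, was 214, 349.5 and 402 against 1526, 1025 and 644 (1.68), and Nfil3, needed for innate lymphoid cells, 23.7, 31.7 and 29.4 against 115, 136 and 98.9 (1.89). Both were higher in every GFP-positive library, and neither passed. Ebf1, the factor that starts the B cell programme, was 0.108, 4.47 and 0 against 30.7, 46.1 and 21.2 (2.74). Ikzf1 and Ebf1 were named after their values were seen.

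Genes of committed B cells differed in few cases. Of 19 tested, 3 (Ighm, Cd93 and Ebf1) had all GFP-positive libraries above and 1 (Cr2) all below, with a median of 0.32 (0.18 to 0.47). Cd93, a surface glycoprotein of early B cells and of other progenitors, was 3609.6, 4370.1 and 3948 against 8086, 8102 and 6786 (0.94, SE 0.20, adjusted p = 0.0726). The adaptor Blnk, which signals below the B cell receptor, was 134, 22.4 and 11.6 against 189, 412 and 114, so GFP-negative replicate 1 overlapped the GFP-positive range. Ighd, the delta constant region next to Ighm, was 35.5, 41.5 and 83.3 against 345, 332 and 195 (2.40), while Igkc of the kappa light chain was at 0 reads in all 6 libraries. Ms4a1, the gene of CD20 on mature B cells, was near 0 in both gates, at 5.31, 5.12 and 9.25 against 8.53, 3.63 and 12.6.

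T cell genes were mixed. Of 22 tested, 3 (Zap70, Lck and Cd4) had all GFP-positive libraries above and 1 (Lef1) all below, and the median was 0.05, with a sign that changed between alternatives (-0.03 to 0.12). Bcl11b, which commits thymocytes to the T lineage, was at 0 reads in all 6 libraries, and Trbc1, a T cell receptor constant region, was 0.126, 2.12 and 0 against 1.62, 0 and 0. Lck, a kinase of T cell receptor signalling, was 102, 140.3 and 122 against 285, 603 and 356 (1.68), and Zap70, which acts below it, had no reads in GFP-negative cells and was 24.7, 13.3 and 6.40 in GFP-positive ones, at least 5.83-fold higher and named after its values were seen. Of 15 NK and innate lymphoid genes, 4 were all above and 2 all below (median 0.13, -0.07 to 0.37). Rora, a nuclear receptor of innate lymphoid cells, was 140.3, 186 and 224 against 33.1, 14.0 and 44.2 (-2.53), lower in every GFP-positive library.

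Cytokine receptors differed in both directions: of 36 tested, 8 were all above and 7 all below, with a median of -0.05 that changed sign between alternatives (-0.19 to 0.08). Il7r rose and none fell. Il6st, the shared signalling chain of the interleukin 6 family, was higher at 762, 904 and 740.4 against 1436, 1958 and 1976 (1.14).

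Adhesion and homing genes had 10 of 31 members all above and 3 all below, a median of 0.38 (0.12 to 0.48) and no member that passed. Ccr7, which guides cells to lymph nodes and thymus, was 6.71, 9.06 and 7.04 against 35.8, 29.6 and 70.8, and Cxcr4, which holds progenitors in the marrow, 306, 558 and 523 against 632, 834 and 918 (0.81). Cd48, a marker that LMPP carry and stem cells lack, was 261, 317 and 319 against 612, 471 and 446 (0.75). S1pr1, the exit receptor for sphingosine 1-phosphate, was lower at 123, 53.4 and 60.5 against 3.06, 23.7 and 9.99 (-2.46).

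In the Notch pathway, 3 of 21 members were all above and none all below (median 0.07, with a sign that changed between alternatives, -0.07 to 0.25). The receptor Notch1 was 1819, 1871 and 1419.8 against 3686, 3071 and 3786 (1.05, SE 0.28), and Dtx4, an E3 ligase of the pathway, 44.7, 205 and 64.2 against 376, 389 and 475 (2.23, SE 0.58). Both were higher in every GFP-positive library, and neither passed (adjusted p = 0.256 and 0.223).

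Genes of the TAL1 complex, the E proteins and their Id inhibitors leaned the other way, with 1 of 15 all above and 5 all below (median -0.12, between -0.27 and just under 0 over the alternatives), and none passed. Tal1 itself was 667, 984 and 684 against 518, 396 and 575 (-0.64, SE 0.70), lower in every GFP-positive library, with a difference smaller than its SE. Lmo2, the bridging protein of the complex, was 2974, 4196 and 3732 against 2141, 1191 and 2135 (-1.03, SE 0.23, adjusted p = 0.0821), and its partner Gata2, a stem cell and mast cell factor, 319, 411 and 444 against 40.2, 73.4 and 90.1 (-2.51, SE 1.14). Both fell once the libraries of low detection were left out (adjusted p = 0.0141 and 1.74e-04), and the adjusted p ranged up to 0.749 for Lmo2 and 1 for Gata2 over the alternatives. The E protein gene Tcf4 was the member with all GFP-positive libraries above, at 2117, 1945 and 1602 against 2462, 2781 and 2542 (0.47), and Lyl1, the closest relative of Tal1, was 1069, 557 and 714 against 1190.2, 831 and 1075, with overlapping gates.

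Stem cell genes had the lowest median of the lists described here. Of 48 tested, 25 had all GFP-positive libraries below and 2 all above, and the median was -0.93 (-1.11 to -0.76). Their summed level was 5816 to 6303 ppm in GFP-negative and 2922 to 3595 ppm in GFP-positive libraries. Hlf fell and none rose. Procr, the endothelial protein C receptor on stem cells, was 179, 203 and 162 against 33.0, 0 and 26.3 (-3.47, SE 1.14), Tie1, an orphan receptor kinase of stem cells and vessels, 220.2, 229.6 and 258 against 23.1, 34.8 and 40.3 (-2.73, SE 0.68), and Mecom, a factor of long-term stem cells, 664, 655 and 549 against 201, 325 and 183 (-1.42, SE 0.76). All 3 were lower in every GFP-positive library without passing. Slamf1 (CD150), a stem cell marker, was low in both gates and overlapped, at 43.3, 17.2 and 16.9 against 10.2, 13.2 and 20.1. With the 2 libraries of low detection left out, 6 of the 48 fell, with Hlf, Gata2, Tie1, Ifitm1 and Kit among them, and Gfi1b, a repressor of erythroid and megakaryocyte cells, rose (46.0, 61.8 and 87.8 against 282, 294 and 219, adjusted p = 0.0141, against 0.946 with all libraries; named after its values were seen).

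**Figure D4:**
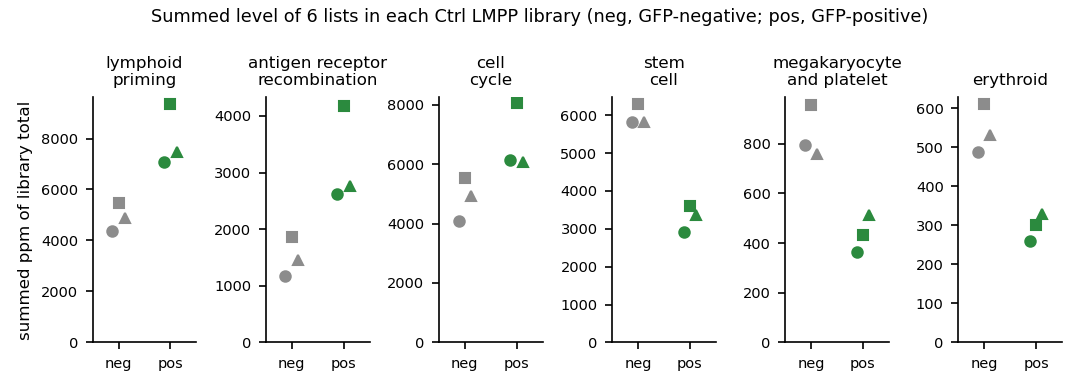
Summed level of 6 gene lists, in ppm of the library total on axes that start at 0, in the 3 GFP-negative (grey) and 3 GFP-positive (green) Ctrl LMPP libraries, with a marker shape for each replicate. Lymphoid priming, recombination and cell cycle lists are higher and stem cell, megakaryocyte and erythroid lists lower in every GFP-positive library. Stem cell genes are at 5816 to 6303 against 2922 to 3595 ppm. The recombination list includes Top2a, a gene of dividing cells, and Dntt, which is also on the lymphoid priming list.

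Megakaryocyte and platelet genes had 6 of 20 members all below and none all above (median -0.44, -0.72 to -0.35), with summed levels of 758 to 957 against 362 to 513 ppm. Mmrn1, a protein of platelet granules, was 196, 231 and 185 against 7.35, 5.07 and 51.2 (-3.53, SE 0.91, adjusted p = 0.223), while Itgb3, the beta chain of the platelet integrin, had overlapping gates at 29.0, 115 and 117 against 281, 172 and 33.3. Platelet Pf4 was near 0 in both gates, at 1.45, 0.395 and 8.35 against 0.174, 0 and 0 (named after its values were seen). Erythroid genes had 6 of 30 all below and 1 all above (median -0.59, -0.94 to -0.25; 488 to 610.3 against 260.0 to 328 ppm). Car2, a carbonic anhydrase, was 2046, 2418 and 1900.5 against 921, 463 and 1020.2 (-1.47, SE 0.41), Nfe2, a factor of both lineages, 772, 887 and 694 against 528, 309.6 and 369 (-0.98), and the transferrin receptor Tfrc, which dividing cells of all kinds use, was higher at 345, 305 and 347 against 485, 1014 and 597 (0.99). None of these members passed. Mast cell, basophil and eosinophil genes had 3 of 17 all below and none all above (median 0.00, -0.80 to 0.12), and the 3 were Gata2, Kit and Mitf.

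Myeloid genes split in both directions. Of 40 granulocyte and monocyte genes, 6 were all above and 5 all below (median -0.13, with a sign that changed between alternatives, -0.26 to 0.20), and none passed. Clec12a, a lectin receptor of myeloid cells, was 174, 181 and 314 against 989, 658 and 927 (1.95, SE 0.41, adjusted p = 0.0684), higher in every GFP-positive library, as was Ly86, the partner of a Toll-like receptor relative, at 34.2, 10.2 and 14.3 against 249, 75.8 and 109 (2.61). The granule protease gene Prtn3 was lower at 691, 536 and 420.0 against 263, 50.4 and 152 (-2.04), and so was Hk3, a hexokinase of neutrophils, at 409, 425 and 555 against 220.0, 37.0 and 171 (-1.98). Of 25 dendritic cell and antigen presentation genes, 6 were all above and 5 all below (median -0.22, -0.36 to 0.03). Cox6a2, a cytochrome oxidase subunit used by plasmacytoid dendritic cells, was 4.09, 6.16 and 1.80 against 69.7, 81.9 and 90.4 (3.41, SE 0.75, adjusted p = 0.0804), and Siglech of the same cells was given above. The MHC class II gene H2-Aa was lower in every GFP-positive library, at 299.6, 215 and 232 against 35.9, 77.2 and 157 (-1.64).

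Cell cycle genes leaned to the GFP-positive gate: 16 of 39 were all above and 1 (Ccnd3) all below, with a median of 0.49 (0.35 to 0.60) and summed levels of 4071 to 5522 against 6074 to 8046 ppm. None passed. Bub1, a kinase of the spindle checkpoint, was 168, 192 and 193 against 428, 503 and 442 (1.29, SE 0.40), Top2a, the topoisomerase of dividing cells, 2192, 3839.7 and 2916 against 5055, 7267 and 5242 (0.99, SE 0.28), and Aurka, a mitotic kinase, 68.3, 91.4 and 82.6 against 231, 350.2 and 208 (1.63). The gates did not overlap in any of these 3. The inhibitor Cdkn1a (p21) was also higher at 168, 152 and 136 against 653, 258 and 250.3 (1.18), with GFP-positive replicate 1 far above the other 2. Cdkn2d, another inhibitor, was 199, 129 and 111 against 133, 40.0 and 34.1, with overlapping gates.

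Interferon response genes had 7 of 30 members all below and none all above (median -0.47, -0.65 to -0.31), among them Ly6a of the Sca1 gate. Igtp, a GTPase that interferon gamma induces, was 343, 339 and 271 against 173, 165 and 112 (-1.08), and Ifit1, induced by type I interferon, 164, 255 and 156 against 94.4, 99.4 and 83.1 (-0.99). Immediate early and stress genes had 2 of 18 all above and none all below (median -0.38, -0.48 to -0.09). Egr1, the best known of them, overlapped at 148, 91.0 and 59.6 against 17.4, 12.5 and 125. Stromal and endothelial genes (10 tested, 1 all above and 1 all below), mitochondrially encoded genes (14, none of either kind) and ribosomal protein genes (82, 1 all above) had medians of -0.32, 0.13 and 0.06, each with a sign that changed between alternatives.

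The same gates exist in Ctrl HSC, KO LMPP and KO HSC, which share no library with Ctrl LMPP, although the Ctrl HSC libraries carry the same sample numbers. Of the 1067 genes with all GFP-positive libraries above in Ctrl LMPP, 69.4% had a positive difference in KO LMPP, where 40.6% of all genes did, and 61.7% in Ctrl HSC, where 39.3% of all genes did. Of the 1334 with all below, 80.7% had a negative difference in KO LMPP (59.4% of all genes) and 78.2% in Ctrl HSC (60.7%). In KO HSC the shares lay nearer to those of all genes, at 57.5% positive of the genes above (45.7% of all genes) and 65.5% negative of the genes below (54.3%), and the reporter's own gene Rag2 was 75.9, 68.0 and 107 in its GFP-negative and 316, 429 and 376 in its GFP-positive libraries (2.12, adjusted p = 0.0828, and 0.0191 without the libraries of low detection). Without the 2 libraries of low detection, the shares in KO LMPP and Ctrl HSC were 80.8% and 63.9% for genes above (49.3% and 43.6% of all genes) and 75.2% in both for genes below (50.7% and 56.4%). By gene, Il7r was 5.48 on the log2 scale in Ctrl HSC and 4.79 in KO LMPP (limma adjusted p = 5.22e-04 and 0.00401), Cmah 1.53 and 2.47 (0.00824 and 1.11e-04), Hlf -2.06 and -2.42 (0.00442 and 0.00186) and Ttc39b -3.48 and -2.99 (0.00154 and 0.0121). These 4 passed in Ctrl LMPP, Ctrl HSC and KO LMPP, in the same direction, and in the latter 2 they did so without the libraries of low detection too, where Hlf fell by 1.32 in place of 2.06 in Ctrl HSC. In KO HSC none of the 4 passed: the differences were 2.18 for Il7r, 0.46 for Cmah, -0.32 for Hlf and -2.13 for Ttc39b (adjusted p = 0.635, 0.999, 0.999 and 0.179), each with the same sign as in Ctrl LMPP, and none passed there once the libraries of low detection were left out (adjusted p from 0.0558 for Ttc39b to 0.777 for Hlf). Whether the changes of KO HSC differ from those of Ctrl LMPP was not tested. Dntt, which missed the threshold in Ctrl LMPP, rose in Ctrl HSC, KO LMPP and KO HSC (3.87, 3.40 and 2.10, adjusted p = 2.17e-05, 1.21e-04 and 0.0231). Cd63 fell in KO LMPP (-1.98, adjusted p = 0.0130) and had a difference of -0.08 in Ctrl HSC, where its libraries held 478, 316 and 363 in the GFP-negative and 323, 280.1 and 515 in the GFP-positive gate. In KO HSC it was 822, 1068 and 782 against 505, 522 and 527, gates that did not overlap (-0.76, adjusted p = 0.999). The difference of -2.07 between the changes of Ctrl LMPP and Ctrl HSC did not pass (adjusted p = 0.344). Gm19331 and Synpo2l passed in neither Ctrl HSC nor KO LMPP (1.62 and 0.80, -0.33 and 1.13), nor did Speg (-1.24 and -1.72).

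**Figure D5:**
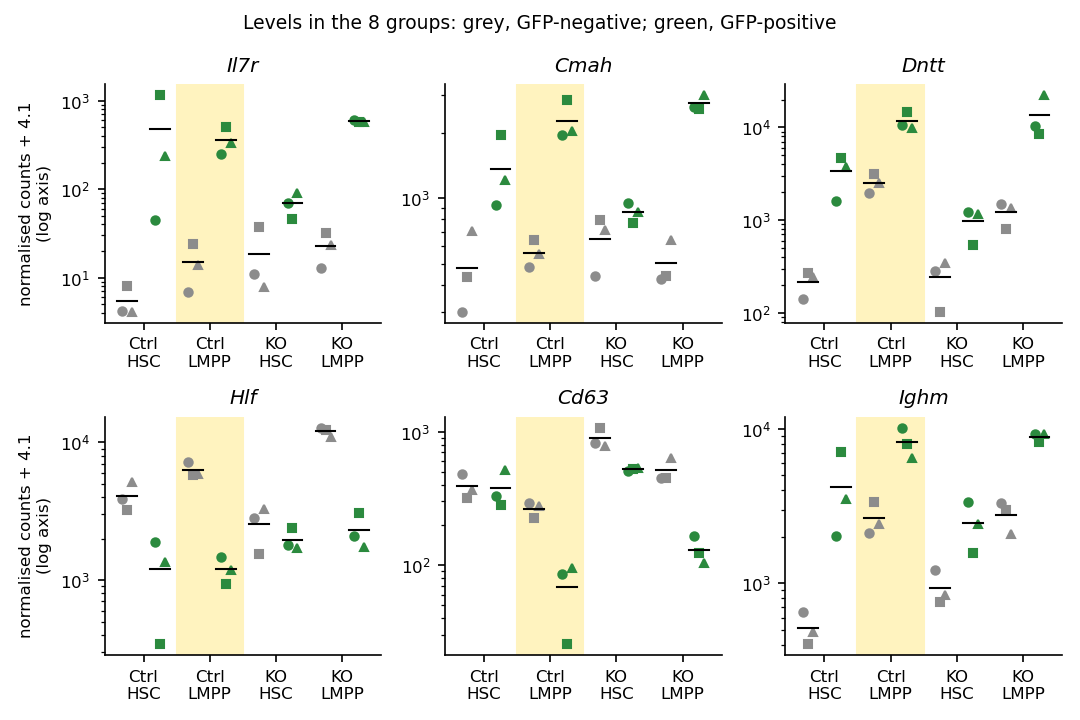
Normalised counts plus 4.1, on log axes, of 6 genes in all 24 libraries, grouped by genotype and population, with GFP-negative libraries in grey, GFP-positive in green, a marker shape for each replicate and a bar at the mean of each group. Ctrl LMPP is shaded. A reader should see that Il7r, Cmah, Dntt and Ighm have a higher mean and Hlf a lower one in the GFP-positive gate of every population. The gates of Cd63 stand apart in Ctrl LMPP, KO LMPP and KO HSC and overlap in Ctrl HSC. Those of Hlf and Cmah overlap in KO HSC.

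Whether the change with the reporter differed between populations was tested by interaction. Against Ctrl HSC, 4 of 16215 genes passed (0.0247%): the change was more positive in Ctrl LMPP for 1 (0.00617%), St8sia6, and more negative for 3 (0.0185%), the T cell genes Bcl11b, Trbc1 and Tcrg-C2. St8sia6, a sialyltransferase, was 0.128, 6.75 and 0 in GFP-negative and 8.78, 25.1 and 40.3 in GFP-positive Ctrl LMPP, but 116, 76.0 and 73.9 and 0.259, 0.0320 and 0.245 in Ctrl HSC, so the gates stood in opposite order in the 2 populations (difference of changes 6.57, adjusted p = 0.00372). Bcl11b was at 0 reads in both gates of Ctrl LMPP and at 79.3, 186 and 136 in GFP-positive Ctrl HSC (-4.98, adjusted p = 2.62e-04). It reached the filter of 1 ppm only in those 3 libraries and was at most 4.68 in every other library. Its entry to the test thus came from the group where it was high, and its p-value is no independent support. Trbc1 and Tcrg-C2 were at most 2.12 in Ctrl LMPP and at 162, 423 and 346 and 120.5, 239 and 34.7 in GFP-positive Ctrl HSC (-5.58 and -4.72, adjusted p = 0.0102 and 0.0154). The differences of the T cell genes rest on the GFP-positive Ctrl HSC libraries, 1 of which has low detection. Without both libraries of low detection 10 genes passed, 3 of the 4 among them, and leaving out single libraries gave between 1 gene (without Ctrl HSC GFP-positive replicate 2) and 18 or 20 (without its replicates 1 or 3). Against KO LMPP none of 16215 genes passed in limma, with 531 at an unadjusted p under 0.05, 6 passing with array weights, 1 with libraries divided by their totals and 1 without KO LMPP GFP-negative replicate 3. A gene that misses the threshold here is not shown to behave alike in the 2 genotypes: for Il7r and Cmah the differences of changes were -0.08 and -0.46 with SEs of 1.20 and 0.45.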

How the data were processed

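RNA-seq libraries of sorted mouse bone marrow LSK cells were analysed from 1 deposited table of 17149 genes in 24 libraries. The values are the authors' normalised counts, a signal that is not whole (0.594% of values above 0 lie within 0.001 of a whole number), so that a count model was not used. The deposited values go back to Trimmomatic 0.33, HTSeq 0.6.1, edgeR and the mm10 build, per the submitters' processing notes, which give no role or order for the tools. The aligner, the edgeR version and the strand setting of the counting are not given in the sources used here. Depth was estimated from the spacing of low values (5930000 to 11900000 reads in the 6 Ctrl LMPP libraries), and intervals from it would cover counting error only.

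Genes with at least 1 ppm of the library total in at least 3 libraries were kept (16215). A pseudocount of 4.1, which is 0.5 ppm of the mean library total, was added before taking log2, and the result was fitted with limma 3.58.1 (R 4.3.3) on 8 group means of all 24 libraries, with an intensity trend and Benjamini-Hochberg adjustment over all genes. Log2 differences are on this scale and understate changes of low genes. Fitting was tested on simulated data. Gene names came from the reference tables for 16978 identifiers, and 171 had no entry.

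Named genes were those passing with gates that do not overlap and at least 5 ppm in the higher gate (predicted genes left out). Where fewer than 5 were named so in a direction, the 5 smallest p-values were taken among genes that did not pass. The same conditions held for these, so their gates do not overlap by choice. Also named were a set of gate and lymphoid genes, and up to 6 members with the largest differences from each of 25 lists. Members and lists were chosen with earlier results of these data known, and lists are described by counts and medians without a test. The male libraries as a term, single Ctrl HSC and KO LMPP libraries left out, and the 6 libraries on the main gene set were alternatives chosen after seeing the data.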

Additional observations from a re-analysis of the deposited data

Results flagged for a closer look

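The change with the reporter differed by test between Ctrl LMPP and Ctrl HSC for 4 genes. The difference of changes (Ctrl LMPP minus Ctrl HSC) was 6.57 on the log2 scale for St8sia6 (limma adjusted p = 0.00372), whose gates stood in opposite order in the 2 populations. It was -4.98 for Bcl11b (adjusted p = 2.62e-04), -5.58 for Trbc1 (adjusted p = 0.0102) and -4.72 for Tcrg-C2 (adjusted p = 0.0154), T cell genes with reads in GFP-positive Ctrl HSC and nearly none in either gate of Ctrl LMPP. Bcl11b met the filter for testing only through the GFP-positive Ctrl HSC libraries, where it was high, so its p-value is no independent support. The part of other cells in the GFP-positive Ctrl HSC libraries was not tested.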

How the results depend on the processing

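Of the 141 named genes, none that passed in any setting changed direction in the alternatives run. Another 22 of them, which passed in none, and the medians of 11 of 25 lists, changed sign in at least 1 alternative. Other genes called in the alternatives were not followed across settings. Against 9 genes passing in Ctrl LMPP, the count was 3 with a pseudocount of 0.1 ppm, 19 with 2 ppm, 14 with no filter, 15 with libraries divided by their totals, 21 after quantile normalisation, 141 with array weights, 20 with no intensity trend, 77 without the 2 libraries of low detection, 70 in only the 6 libraries with their own filter (13649 genes) and 1 in only the 12 Ctrl libraries, where Rag2 (3.71) had an adjusted p of 0.0553. With male libraries as a term, chosen after seeing the data, it was 15. In only the 6 libraries on the main gene set, also chosen then, it was 9, and 6 with the block. These were not all the same genes: 4 of those 9 and 3 of those 6 were among the 9 of the main fit. Of the 70 genes with their own filter, 6 were. The gene that passed in only the 12 Ctrl libraries was not. Leaving out 1 Ctrl LMPP library gave 0 to 11 genes and a Rag2 difference of 3.39 to 4.10. The difference of changes against Ctrl HSC (4 genes) gave 15 with 2 ppm, 10 without low detection, 11 with no trend and 1 to 20 with 1 library left out, and that against KO LMPP (0 genes) gave 1 with totals, 6 with array weights and 0 to 1 with 1 library left out. The replicate block gave 15 genes in 24 libraries and 160 in the 6 with their own filter. Same-numbered libraries of the 2 gates correlated in their deviations at 0.0569, 0.0374 and 0.129, not all above 0.1, so the numbers were not taken to pair them, although every library correlated best with its own number. The causes of these shifts were not tested, apart from the gene filter, which alone separates the counts of 70 and 9. With 3 libraries a gate and 3 reads at 1.74 to 4.26 normalised counts, depth limits genes near 0. Setting members without reads in 1 gate to their bound moved no list median by more than 0.103 over 24 lists.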
